A study of Mus musculus with 2 samples.

Results

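The array described here compared brain RNA of 1 TDAG51-/- sample with that of 1 TDAG51+/+ sample, and it is 1 of the 2 arrays in the series. Both samples came from female C57BL/6J mice, 8 weeks of age, at postpartum day 0 (P0). The TDAG51-/- RNA was labelled with Cy3 and the TDAG51+/+ RNA with Cy5, so that a ratio of Cy3 over Cy5 is TDAG51-/- over TDAG51+/+. The other array of the series carried a TDAG51-/- sample in Cy3 and, in Cy5, a TDAG51-/-Tg sample, in which a TDAG51 transgene is driven by a brain-specific promoter on the knockout background. The study asked which brain transcripts differ in knockout dams, whose maternal care and mood-like behavior it examined.

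The members were taken as every named gene with a usable ratio on the knockout versus wild-type array. Of 41029 probes left after outlier spots were removed, 32609 could be given a gene name, and these stood for 19469 genes. Each gene was read from the probe that was brightest on this array. A total of 17342 genes were well above background, by the scanner's own mark, in at least 1 channel, and 2127 were not. A ratio or a lower bound of one could be given for 17024 genes, and the other 318 detected genes had saturation in the dimmer or both channels, or a bound under 1. There was 1 array and no dye swap. The spread between dams was therefore not measured, no test of genotype was possible, and every value below is a description of these samples. The dye and the genotype cannot be told apart, nor can the genotype and any other difference between the 2 brains, such as how much tissue of each region they held. The number of dams in a sample is not stated in the labels.

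TDAG51, whose gene is Phlda1, is a small protein with a pleckstrin homology-like domain that was first described in T cells and is linked to cell death and growth signalling. It is not a transcription factor with known binding sites, so no set of direct target genes defines a response to its loss. The adult brain is instead ordered by region: homeobox and other transcription factors that pattern the embryo stay on in the neurons of the forebrain, midbrain and hindbrain, and each region's neurons carry their own receptors, peptides and transmitter enzymes. A whole-brain RNA sample is a mixture of all of these. In such a sample, fewer cells of a type and less RNA per cell cannot be told apart.

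The probe that measured TDAG51 is shown first, because it checks the labels. The first 30 bases of this and some other 60-base probes are given 5′ to 3′, in the order in which the results use them, as the letters that caught the labelled RNA. Positions are those of the array's design on the mouse assembly mm7.

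Phlda1, chr10:110970234-110970263, plus strand: atgactttatttatggacctttggaaggat
Wnt8b, chr19:44405142-44405171, plus strand: cgtgggcttcggagaggcaatttccaagca
Gabra6, chr11:42263368-42263397, minus strand: tgcatatgtacatagctttagttatgctgc
Hoxb5, chr11:96414855-96414884, plus strand: taggccccacaaggcctagtctggaagcgt
S100a5, chr3:90741771-90741800, plus strand: aggagattgacttcaaggagtactctgtgt
Sp8, chr12:116637615-116637644, plus strand: ccgggcctagttttgctcgaatatgaattt
Rai1, brightest probe, chr11:60280202-60280231, plus strand: tcgtgtacaaacctgtgtacccctctatat
Rai1, next probe, chr11:60272720-60272749, plus strand: gacctagcacattaacacctattgatcttt

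Phlda1 had 1 probe. Its raw intensity was 350 in TDAG51-/- and 7283 in TDAG51+/+ brain, and after normalization the ratio was 17.3-fold lower in TDAG51-/- (log2 ratio -4.11). The knockout label therefore matched the signal of the gene. The knockout channel was still marked as well above background on this array, whereas on the other array the TDAG51-/- intensity was 44.1 and the TDAG51-/-Tg intensity 50.5, neither of them well above background. Where the probe lies relative to the deleted part of the gene was not determined. Of the relatives, Phlda3 was 1.61-fold higher, at 2959 against 2179, and Phlda2 was near background in both channels.

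The tissue label was checked with 5 brain genes. Snap25 and Syt1, which act in synaptic vesicle release, gave 6598 and 15823 in TDAG51-/- against 8142 and 35475 in TDAG51+/+. The neurofilament gene Nefl gave 19915 against 23144 and the astrocyte filament gene Gfap 1296 against 1482. The myelin gene Mbp gave 10007 against 19445. All 5 were well above background in both channels and differed by less than 2-fold after normalization, with log2 ratios between -0.57 and 0.37. The sex label was checked too: 4 Y-linked genes, Ddx3y, Eif2s3y, Kdm5d and Uty, were near background in both samples, and Xist, the RNA that coats the inactive X chromosome, gave 7289 and 8504.

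Across the 17024 genes, 772 (4.53%) had at least 2-fold more signal in TDAG51-/- brain, and 861 (5.06%) had at least 2-fold less. These shares are the background with which each gene group below is read. For 874 of the 17024 genes only a bound under 2-fold could be given, so their ratio may lie past 2-fold, and 8 and 4 of these are among the 772 and the 861 by their fitted ratio. The offset of 50 added to both channels pulls the ratios of dim genes towards 1. Counts below are with this offset unless the scanner's own ratio is named. A gene called the single one of its list past 2-fold may therefore not be the only one without the offset. A change of at least 4-fold was seen for 132 genes higher and 119 lower, and one of at least 8-fold for 25 and 18. The ratios of 12550 genes (73.7%) lay within 1.5-fold of 1, and the median log2 ratio was -0.02. The median log2 ratio before normalization was -0.27, so a raw pair of intensities can lean towards TDAG51+/+ while the normalized ratio does not. Without normalization, 23.2% of the genes past 2-fold were higher, as against 47.3% with it.

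**Figure D1:**
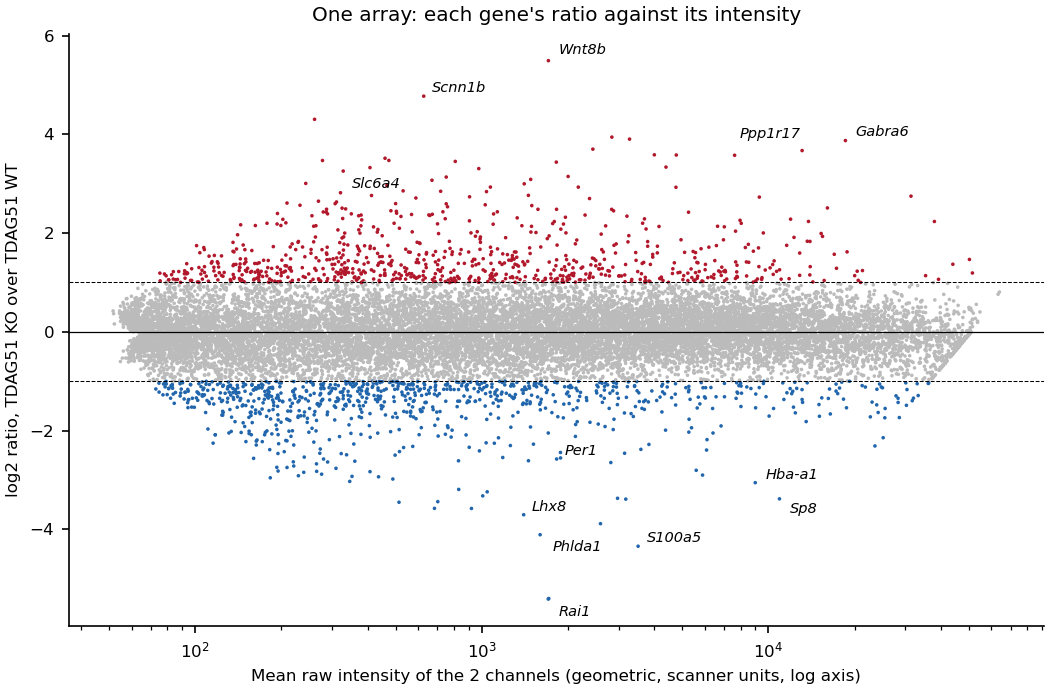
Each point is 1 of the 17024 genes, with the mean raw intensity of both channels on a log axis and the normalized log2 ratio of TDAG51 KO over TDAG51 WT on the other. Red points are the 772 genes at least 2-fold higher, blue points the 861 at least 2-fold lower, dashed lines mark 2-fold, and the slanted lower edge at the right holds genes whose Cy5 signal was saturated. Wnt8b is the highest point and Rai1 the lowest.

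The share of genes past 2-fold depended on how bright the gene was. With the genes ordered by brightness in 5 equal classes, the dimmest, with raw mean intensities from 51.7 to 183, held 3.32% higher and 5.43% lower genes. The next class, up to 664, had the largest shares, 7.4% and 9.16%. In the brightest class, above 7150, 1.97% were higher and 2.26% lower. Bright genes past 2-fold, such as Gabra6 and Sp8 below, were thus less common than dim ones.

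The precision of a ratio can be judged in 3 ways on these arrays. Among 220 probes printed at least 5 times, spots of 1 probe differed by a median SD of 0.06 on the log2 scale. The TDAG51-/- channel of the other array gave a further reading of the knockout: for 15824 genes measured in both, the ratio to TDAG51+/+ moved by a median of 0.10 and by up to 0.38 in 95% of genes on the log2 scale, and 48 genes (0.303%) moved by 2-fold or more. With that channel in place of the first, 696 of the 772 higher genes (90.2%) and 769 of the 861 lower genes (89.3%) were still past 2-fold. Whether both knockout channels hold the same RNA extract is not stated. The same TDAG51+/+ reading entered both ratios, so the precision of that reading is not judged in this way. The third way, a different probe for the same gene, gave a far larger spread.

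A total of 7410 genes had at least 2 probes with a ratio. The brightest and the next probe differed by a median of 0.37 on the log2 scale, and by 2-fold or more in 980 genes (13.2%). Among 331 genes whose brightest probe was at least 2-fold higher, the next probe was also at least 2-fold higher in 77 (23.3%), higher by less than 2-fold in 171 (51.7%), and on the other side of 1 in the remaining 83, of which 6 were at least 2-fold lower. Among 267 genes whose brightest probe was at least 2-fold lower, the next probe was also past 2-fold in 54 (20.2%), lower by less in 130 (48.7%) and at least 2-fold higher in 8. A ratio from 1 probe is accordingly a statement about that probe, and other probes are given below for the largest ratios and for part of the genes named from lists.

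**Figure D2:**
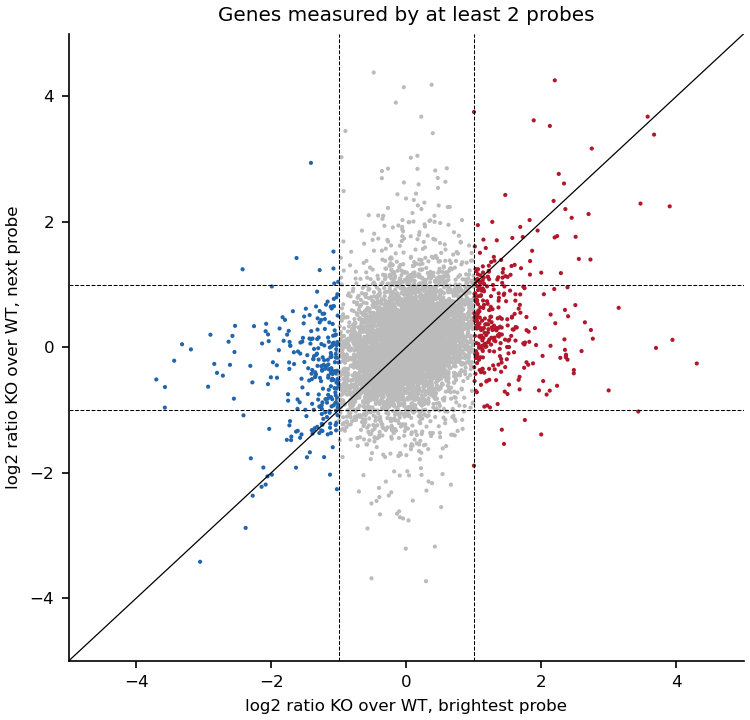
Each point is 1 of 7410 genes with at least 2 usable probes, with the log2 ratio of TDAG51 KO over TDAG51 WT for the brightest probe across and for the next probe up. Points on the diagonal have equal ratios, red and blue mark genes whose brightest probe was past 2-fold, and of these 77 red and 54 blue points are past the dashed 2-fold line on both axes in the same direction.

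The largest ratios above 1 were led by genes with 1 probe. Wnt8b, which encodes a secreted Wnt ligand, stood highest, with intensities of 11004 in TDAG51-/- and 265 in TDAG51+/+ (45.0-fold). Scnn1b, the beta subunit of the epithelial sodium channel, followed with 3314 against 119 (27.3-fold). Gabra6, the GABA-A receptor subunit of cerebellar granule cells, gave 58570 against 5885 (14.7-fold). All 3 had a single probe.

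The next genes in this order included some whose probes gave like ratios and some whose probes did not. Ppp1r17, the phosphatase inhibitor of Purkinje cells known as G-substrate, had 2 probes that were 12.7-fold and 10.5-fold higher, with 39247 against 4378 for the brighter. Il22, a cytokine gene, also had 2 probes, both high, at 11.9-fold and 12.8-fold. Shq1, an assembly factor of small nucleolar particles, was 11.1-fold higher by 1 probe and at least 4.90-fold higher by the other. In contrast, Slc35a4 was 12.99-fold higher by its brightest probe (8174 against 729) while its other probe had a log2 ratio of -0.01. Ppp2cb, a catalytic subunit of protein phosphatase 2A, was 10.8-fold higher by the brightest probe and 2.03-fold lower by the other. Crtam, Vwa7 and Lrfn1 were also among the 12 largest, each by 1 probe, with log2 ratios of 3.58, 3.58 and 3.52.

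Among genes with a wild-type signal near background, Zfp609, a zinc finger gene, had the largest bound, at least 18.1-fold higher (1304 against 52.2), but its other 2 probes had log2 ratios of -0.26 and 0.03. Olfr1018, Myo1g, P2ry2, Ptger1 and Akr1b7 followed, with bounds between 2.81-fold and 3.15-fold. These 5 were dim genes, with knockout intensities of 215 or less, and another probe of P2ry2 was at least 1.25-fold lower. Each bound sets the measured channel against the dimmest level that the scanner still called well above background. Where the gene's own reading in the near-background channel was higher than that level, the reading was used instead.

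The largest ratios below 1 began with a gene whose signal was high in TDAG51+/+ alone. Rai1, a nuclear protein gene, was 42.6-fold lower by its brightest probe (235 in TDAG51-/- against 12387 in TDAG51+/+), and its other probe was near background in both channels. S100a5, a calcium-binding protein gene of olfactory neurons, was 20.3-fold lower (702 against 17562). Phlda1 itself came next. Slc25a22, a mitochondrial glutamate carrier, was 14.8-fold lower (613 against 10991) by its only probe.

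Lhx8, a homeobox gene of basal forebrain cholinergic neurons, was 13.03-fold lower (356 against 5509), and its other probe, with a near-background knockout signal, was at least 1.26-fold lower. Hira, a histone chaperone, was 11.9-fold lower by 1 probe, while its other 2 probes had log2 ratios of -0.96 and 0.05. Ido1, which starts the breakdown of tryptophan to kynurenine, was 10.9-fold lower (144 against 1836). Nln, the peptidase neurolysin, was 10.8-fold lower by 1 probe and had a log2 ratio of -0.21 by the other.

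The list was completed by the serotonin receptor gene Htr5a (10.5-fold), the zinc finger gene Sp8 of olfactory bulb interneurons (10.4-fold, 2856 against 41832), the photoreceptor and mitral cell cadherin Cdhr1 (10.3-fold) and the retinoic acid receptor Rarb. Rarb had intensities of 252 and 2736 and a log2 ratio of -3.19, and its other probe had one of -0.03. Among genes with a near-background knockout signal, the 6 largest bounds were those of Olfr248, Olfr96, Olfr859, Pkhd1, Naip1 and Olfr1509, from at least 5.91-fold to at least 3.105-fold lower, with wild-type intensities of 425 or less.

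Several of these genes had a different ratio on the other array, which shared no control with this one. The TDAG51-/-Tg intensity of Rai1 was 300, next to a knockout intensity of 190, so that only the TDAG51+/+ sample had a high signal. The same was seen for Slc25a22 (893 in TDAG51-/-Tg against 703), Hira (297 against 243) and Htr5a (959 against 590). In contrast, Lhx8 was 5062 in TDAG51-/-Tg against 374 and Sp8 was 36405 against 2878, close to their wild-type intensities, and S100a5 was 9562 against 515, which lay between its knockout and wild-type intensities. Lrfn1 was 3756 in TDAG51-/-Tg against 1623 in TDAG51-/-, whereas in TDAG51+/+ it was 135. Because the transgenic sample carries the knockout alleles too, a gene with a high signal in TDAG51+/+ alone and one with a high signal in both controls are different patterns.

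**Figure D3:**
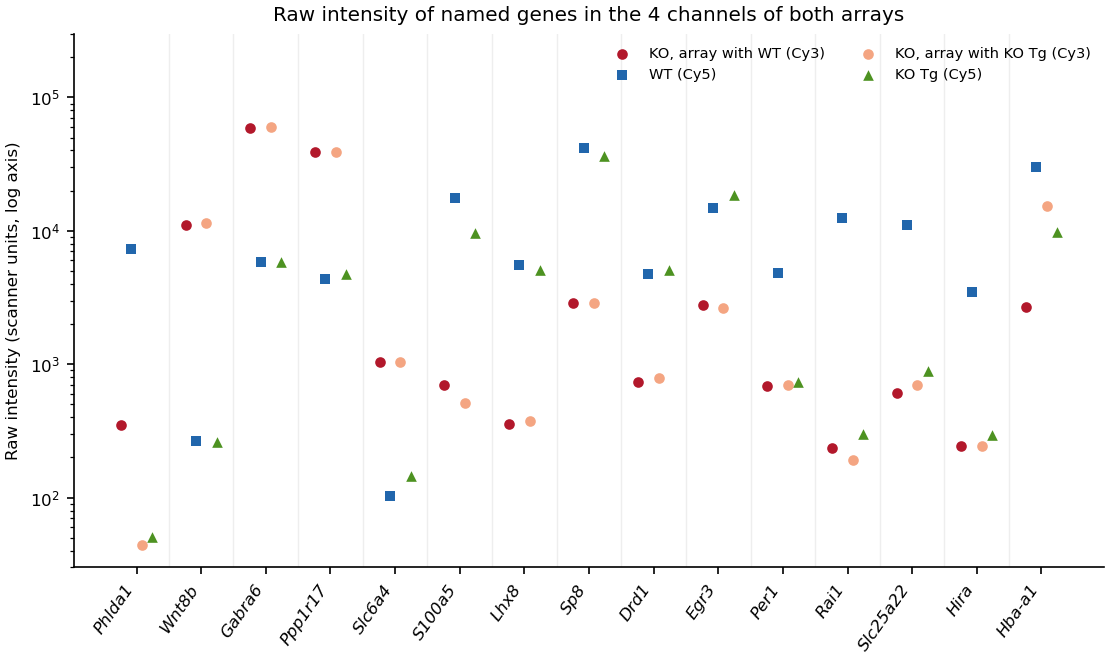
Raw intensity, on a log axis, of named genes in the 4 channels of the 2 arrays: red circles and blue squares are TDAG51 KO and WT on the first array, pale circles and green triangles TDAG51 KO and KO Tg on the second. Rai1, Slc25a22, Hira and Per1 have 1 high point, in WT, whereas S100a5, Lhx8, Sp8, Drd1 and Egr3 are high in both controls, and the knockout reading of Hba-a1 differs between the arrays.

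Transcription factors that mark position along the brain differed by region, and those of the telencephalon were lower. Of 25 measured telencephalic transcription factors, 17 were at least 2-fold lower in TDAG51-/- brain and 0 were at least 2-fold higher, with a median log2 ratio of -1.28. The range was from Lhx8 at -3.70 to Eomes at 0.72, and 22 of the 25 were below 0. Beside Lhx8 and Sp8, the interneuron genes Dlx2 and Dlx1 led the list, with 364 against 1597 (log2 ratio -1.94) and 523 against 2071 (-1.77). Tbr1, of deep cortical projection neurons, had a log2 ratio of -1.25, and Nkx2-1 and Lhx6, of ventrally derived interneurons, -1.39 and -1.32. Neurod2 and Cux2, which are also cortical, were not lower (0.15 and 0.66). A next probe was available for 7 of the 17 lower genes, and it was past 2-fold in the same direction in 1, lower by less in 3 and not lower in 3.

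Midbrain and hindbrain transcription factors lay on the other side. Of 30 measured, 12 were at least 2-fold higher and 0 were past 2-fold in the other direction, with a median of 0.68. Pax3, of the dorsal midbrain and hindbrain, gave 2170 against 260 (8.79-fold), and its other probe was near background. Irx5 and Barhl1 had log2 ratios of 2.43 and 2.39, and Lhx1 and Lhx5, of Purkinje and other cerebellar neurons, 2.26 and 1.70. En2, which stays on in the cerebellum, was at 1.46, and Pax5 had the lowest value, -0.93. A next probe was available for 4 of the 12, and all 4 were higher, 2 of them past 2-fold.

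The Hox genes, which are used from the hindbrain backwards and not in the midbrain or forebrain, were split by their order in the clusters. Paralogue groups 1 to 5 are used in the hindbrain and groups 6 to 13 mainly in the spinal cord. Of 13 measured genes of groups 1 to 5, 6 were at least 2-fold higher, with a median log2 ratio of 0.89. These were Hoxb5 (1868 against 276, log2 ratio 2.85), Hoxa5 (878 against 118, 2.82), Hoxa2, Hoxb2, Hoxd4 and Hoxa3. A next probe was available for 2 of them, Hoxa3 and Hoxb2, and it was higher by less than 2-fold in both (0.38 and 0.49). Of 16 measured genes of groups 6 to 13, 0 were past 2-fold in either direction, with a median of -0.21 and a range from -0.64 to 0.65. For Hoxa10 this depended on the knockout reading, which was 637 on this array and 98.5 on the other. Its log2 ratio to TDAG51+/+ was -0.57 with the first and -3.08 with the second. In all, 8 of the 37 Hox genes on the array were near background in both channels. By the scanner's ratio, which has no offset, 9 of the 29 measured Hox genes were at least 2-fold higher and 1 was lower. Those counts were not split by group.

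**Figure D4:**
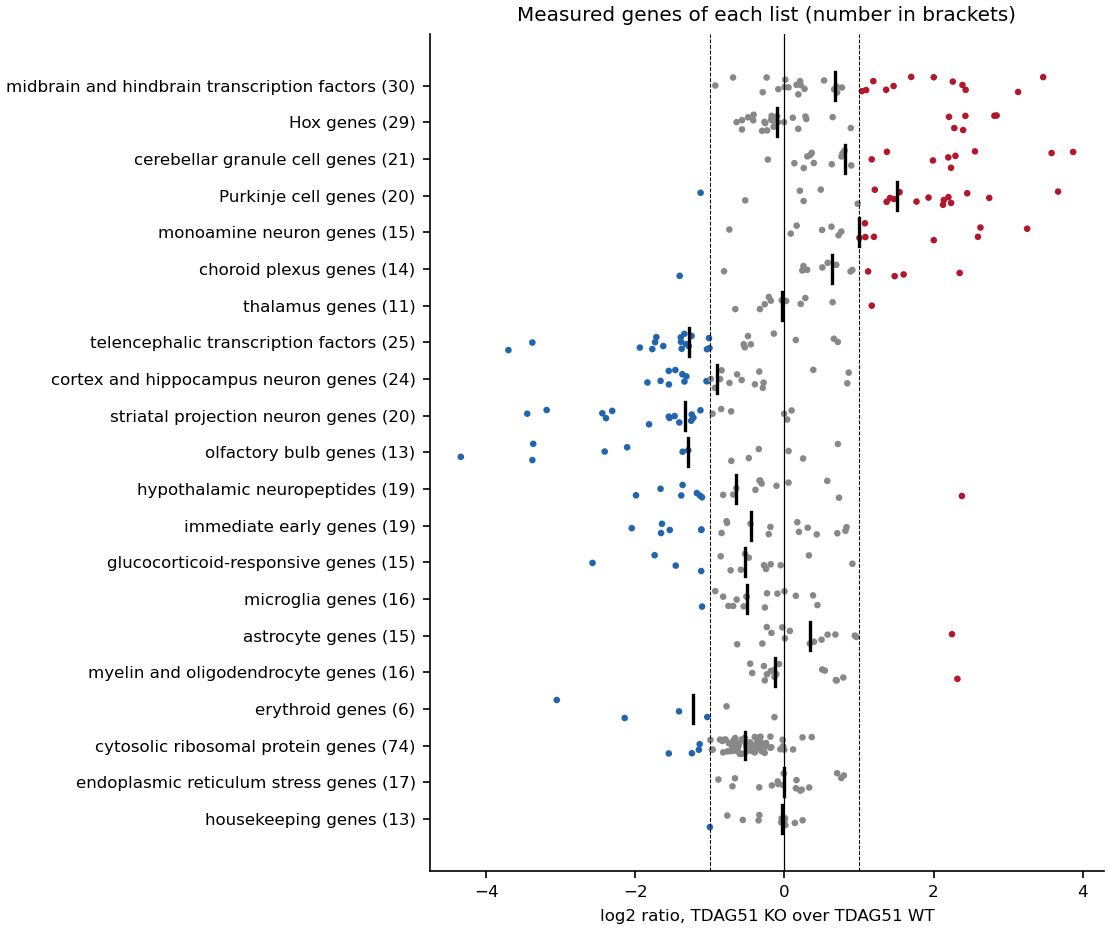
Each point is a measured gene, with its log2 ratio of TDAG51 KO over TDAG51 WT, in rows by gene list with the number of measured genes in brackets; black bars are medians, dashed lines mark 2-fold, red is at least 2-fold higher and blue at least 2-fold lower. Lists of the hindbrain, cerebellum and monoamine neurons have medians of 0.68 to 1.51 (the Hox list, at -0.10, is the exception), and those of the telencephalon, cortex, striatum and olfactory bulb medians of -0.90 to -1.33.

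Cerebellar neuron genes were higher. Purkinje cells are the output neurons of the cerebellar cortex, and of 20 measured genes of this list 14 were at least 2-fold higher and 1 lower, with a median log2 ratio of 1.51. Beside Ppp1r17, they were led by Pcp2, the Purkinje cell protein, which was saturated in TDAG51-/- and at least 6.72-fold higher, Nrk (1111 against 209, log2 ratio 2.45) and Gng13 (25031 against 7606, 2.24). The glutamate transporter gene Slc1a6 was at 2.14. A next probe was available for 7 of the 14, and all 7 were also at least 2-fold higher. The 1 lower gene of the list was at -1.125, and Pcp4, which is also used in forebrain neurons, was at -0.53. Of 21 granule cell genes, 9 were at least 2-fold higher and 0 lower, with a median of 0.81. After Gabra6 and Crtam, these included Cbln3 (3403 against 656, 2.56) and Neurod1 (728 against 147, 2.29), and 3 of the 4 with a next probe had it past 2-fold too.

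Genes of the monoamine neurons, whose cell bodies lie in the midbrain and hindbrain, were higher as well, 8 of 15 by at least 2-fold and 0 lower, with a median of 1.01. The serotonin transporter gene Slc6a4 gave 1048 in TDAG51-/- and 103 in TDAG51+/+ (log2 ratio 3.26). The noradrenaline transporter gene Slc6a2 gave 796 against 122 (2.63), and Tph2, the enzyme of serotonin synthesis in neurons, 775 against 122 (2.60). Th and Dbh, of catecholamine synthesis, were at 1.01 and 1.20, the latter with a near-background wild-type signal. In contrast, Ddc and Maob, which other cells use too, were at 0.51 and 0.08. The dopamine transporter gene Slc6a3 was within 2-fold as well, at 0.76, and Nr4a2, at -0.74, was the 1 member below 0. The glycine transporter Slc6a5 and the glycine receptor subunit Glra1, both of brainstem and spinal cord inhibition, were at 2.96 and 2.43, while the other members of their lists were mostly within 2-fold.

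Forebrain neuron genes were lower. Of 20 measured genes of striatal projection neurons, 14 were at least 2-fold lower and 0 higher, with a median log2 ratio of -1.33. Ido1 and Rarb led, followed by the dopamine receptor gene Drd1 (742 against 4773, -2.44). The adenosine receptor gene Adora2a was at -2.31, with a next probe at -0.30. The opioid peptide genes Penk and Pdyn were at -1.25 and -1.24. Drd2 and Ppp1r1b, which encode the D2 receptor and the phosphoprotein DARPP-32, were at 0.10 and 0.00. A next probe was available for 7 of the 14, and it was past 2-fold in 2, lower by less in 3 and not lower in 2.

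Of 24 cortical and hippocampal genes, 10 were at least 2-fold lower and 0 higher, with a median of -0.90. They included Rasgrf2 (-1.84), the neuropeptide gene Cck (7646 against 35378, -1.66), Crym (-1.55) and the dendritic protein gene Ddn (-1.55). A next probe was available for 3 of the 10, and it was past 2-fold in 1 and lower by less in 2. That of Cck was at -0.27. The vesicular glutamate transporter Slc17a7 was just inside the threshold at -0.99. Of 13 olfactory bulb genes, 7 were at least 2-fold lower, with a median of -1.29. The olfactory marker protein gene Omp, in contrast, was at -0.34 and the mitral cell gene Tbx21 at -0.48, although S100a5, Sp8, Cdhr1 and Doc2g were at -2.41 or below. Of 11 thalamic genes, 1 was at least 2-fold higher and 0 lower, with a median of -0.04.

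Most receptor families, taken as a whole, were centred near 1. The metabotropic glutamate receptors lay lower, with a median log2 ratio of -0.39 and 5 of 7 below 0. GABA-A subunits had a median log2 ratio of 0.08, and of 17 measured, Gabra6 alone was past 2-fold with the offset. Of 18 ionotropic glutamate receptor subunits, 2 were past 2-fold upwards, among them Gria4, and 2 downwards, Grin2b (11608 against 49094, -1.48) and Grik5 (-1.17). All 4 usable probes of Gria4 were above 0, from 0.56 to 1.72, whereas those of Grin2b ran from -1.48 to 0.21. Of 12 serotonin receptors, 2 were at least 2-fold lower, Htr5a and Htr6, and 1 was higher. Of 14 dopamine and adrenergic receptors, Drd1 alone was past 2-fold with the offset. Of 17 acetylcholine receptors, 1, the nicotinic subunit gene Chrna3, was past 2-fold, and it was higher at 1.10, but by the scanner's ratio, which has no offset, 4 were higher and 5 lower. These included Chrm3 at 81.7 against 170 (log2 ratio -0.97 with the offset and -1.81 by the scanner's ratio). By that ratio, 1 dopamine or adrenergic receptor was higher and 2 were lower, and 2 serotonin receptors were higher and 3 lower. The GABA-A subunit gene Gabre was at -1.18 by it.

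Genes on the list of oxytocin, vasopressin and maternal hormone receptors were mostly within 2-fold. Other genes that the study ties to mood, such as Slc6a4, Tph2 and Drd1, were past 2-fold and are given above. Oxytocin (Oxt) gave 405 in TDAG51-/- and 504 in TDAG51+/+, a log2 ratio of -0.18, and vasopressin (Avp) 506 and 727 (-0.37). The oxytocin receptor gene Oxtr was dim in both, at 62.6 and 81.7, and its log2 ratio depended on the background correction, at -0.32 with the offset of 50 and -1.26 by the scanner's ratio. Estrogen receptor alpha (Esr1) was at 0.26 and the prolactin receptor (Prlr) at 0.65, with its other 2 probes at 0.59 and 0.44. Of 9 measured genes of this list, the vasopressin receptor gene Avpr1a alone was past 2-fold with the offset (334 against 136, 1.29). The growth factors Bdnf and Igf1 were at -0.18 and -0.50. Crh was not analysed here, but its relative Ucn, urocortin, gave 929 against 317 (1.67), and the receptors Crhr1 and Crhr2 were at 0.20 and -0.10.

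Genes on the list of hypothalamic neuropeptides were lower more often than higher. Of 19 measured, 7 were at least 2-fold lower and 1 was higher, with a median of -0.65. Prok2, a peptide of olfactory bulb and circadian signalling, gave 1966 against 9742 (-1.99) and was at -2.03 by its other probe. Hcrt, of orexin neurons, gave 2083 against 6651 (-1.38), Pmch, of their neighbours in the lateral hypothalamus, was at -1.13, and Trh at -1.37. The exception was Gnrh1, at 1479 against 305 (2.38). Among the 11 genes within 2-fold were Agrp (-0.11), Gal (-0.33), Kiss1 (-0.33), Ghrh (0.05) and Cartpt (0.57). In all, 15 of the 19 were below 0. The 7 lower genes also included Vip (-1.18), Npy (-1.11) and Cck, which is on the list of cortical and hippocampal genes too. A whole-brain sample does not show in which region the signal of such a peptide gene differed. Of 9 measured anterior pituitary genes, 1, Cga, was past 2-fold, at 254 against 97.1 (1.22). By the scanner's ratio 3 were at least 2-fold higher.

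Immediate early genes, which neurons switch on within minutes of activity, were not all on one side. Of 19 measured, 6 were at least 2-fold lower and 0 were higher by that much, with a median of -0.45. The Egr genes were low, with Egr3 at 2760 against 14877 (-2.05), Egr2 at -1.66 and Egr1 at 9030 against 38834 (-1.54). Nptx2, Homer1 and Fosb were also past 2-fold. However, Fos, Npas4, Dusp1 and Jun lay above 0, at 0.83, 0.82, 0.71 and 0.43. The next probe of Egr3 was at -0.59.

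Glucocorticoid-responsive genes included 4 of 15 at least 2-fold lower and 0 higher, with a median of -0.53. Per1, which is both a clock gene and a hormone target, gave 685 against 4855 (-2.58). Sgk1 gave 11275 against 57584 (-1.74), and its other, dim probe was at 0.26. Fkbp5 was at -1.46 and Klf9 at -1.12, and their next probes were at -0.75 and -1.37. On the other array, Per1 gave 698 in TDAG51-/- and 741 in TDAG51-/-Tg and Sgk1 16576 and 22482, so that for both the highest signal was in TDAG51+/+. The other clock genes were mostly within 2-fold. Per2 and Cry2 were at -0.04 and 0.03, Dbp at -0.65, and Rora, which Purkinje cells also use, at 1.21 with its other 2 probes at 1.12 and 1.05.

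TDAG51 has been studied as a target of endoplasmic reticulum stress, and the genes of that response stayed within 2-fold. Of 17 measured, 0 were past 2-fold in either direction (by the scanner's ratio 1 was lower), with a median of -0.01 and a range from -0.89 (Asns) to 0.80 (Edem1). The chaperone gene Hspa5 was at 0.16 and Ddit3 at 0.21. Of 66 heat shock and DnaJ genes, 3 were at least 2-fold lower and 1 higher. Of 20 interferon-induced genes, 3 were at least 2-fold higher, led by Ddx58 (1.81 by 1 probe and -0.28 by another), and 2 lower. In the kynurenine pathway, Ido1 was the single gene of 9 past 2-fold.

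Of 34 Wnt ligands, receptors and inhibitors, 5 were past 2-fold upwards and 4 downwards. After Wnt8b, the higher ones were Wnt7a (11631 against 4177, log2 ratio 1.86), the receptor genes Fzd1 (1.82) and Fzd9 (1.73), and Sfrp2 (1.04). The lower ones were Wnt10a (-2.39), Sfrp5, Wnt7b and Frzb. In the insulin-like growth factor system 1 of 15 genes, Igfbp1, was past 2-fold, and among neurotrophins and their receptors 1 of 9, Ntf3, both of them higher.

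Among cholinergic neuron genes, 2 of 9 were at least 2-fold lower and 1 was higher, with a median of -0.41. Beside Lhx8, the lower one was Isl1, a homeobox gene of striatal and motor neurons (475 against 1432, -1.40). The higher one was Slc5a7, which takes choline into the terminal (1285 against 699, 1.04), while Chat, the enzyme of acetylcholine synthesis, was at -0.42. Of 15 genes of glycine, GABA and glutamate neurons, Slc6a5 and Dao were past 2-fold, both higher, and of 5 glycine receptor subunits Glra1 alone. Of 7 metabotropic glutamate receptors, Grm3 was lower (16281 against 56941, -1.17), and Grm5, saturated in TDAG51+/+, was at least 1.645-fold lower (24776 against 65284). Of 8 opioid peptides and receptors, Penk and Pdyn were the 2 past 2-fold, and of 7 epithelial sodium and acid-sensing channel genes Scnn1b was the single one.

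Few adhesion and matrix genes were past 2-fold, and they lay on both sides. Of 60 cadherins and protocadherins, 5 (8.33%) were at least 2-fold higher and 2 (3.33%) lower, from Cdh15 (1837 against 626, log2 ratio 1.71) to Pcdhb21 (-1.43). Of 40 collagen genes, 5 (12.5%) were higher and 3 (7.5%) lower, beside 4.53% and 5.06% of all genes. The largest ratio was that of Col5a3 (706 against 117, 2.48), whose other probe was at -0.36. Next probes were available for 2 of the higher cadherins, 3 of the higher collagen genes and 2 of the lower ones. Of these, 0 were past 2-fold in the same direction. Of 22 H2 histocompatibility genes, H2-DMb2 alone was past 2-fold, at 1.71, and of 39 proteasome genes Psmd9 alone, at -1.92 by its brightest probe and -0.29 by the other.

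Glial and vascular genes were mostly within 2-fold. Of 16 measured myelin and oligodendrocyte genes, the connexin gene Gjb1 alone was past 2-fold, at 2.32, and of 15 astrocyte genes Gdf10, of cerebellar Bergmann glia, at 2.25. Of 16 endothelial genes, Eng was past 2-fold, at 1.67, and Slc2a1, saturated in TDAG51+/+, was at least 1.39-fold lower. Microglial genes leaned lower, with 12 of 16 below 0 and a median of -0.51, and Csf1r at -1.11, with a next probe at -0.53, was the single one past 2-fold. Choroid plexus genes leaned higher, with 12 of 14 above 0 and a median of 0.64. Of the 14, 4 (28.6%, beside 4.53% of all genes) were at least 2-fold higher (Slc4a5, Kcne2, Otx2 and Calml4) and 1, Aqp1, was lower. The other probe of Slc4a5 was at -0.04, against 2.35 for the brightest. The summed raw intensity of this list, which is not normalized, was 53821 in TDAG51-/- and 50054 in TDAG51+/+. Ttr, its most typical gene, was at 0.89.

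Erythroid genes were lower in TDAG51-/-, but the knockout reading differed between arrays. Of 6 measured, 4 were at least 2-fold lower and 0 higher, and the summed raw intensity was 15093 in TDAG51-/- and 103507 in TDAG51+/+. The alpha-globin gene Hba-a1 gave 2674 against 30278 (8.31-fold lower), and its other probe was 10.7-fold lower. The beta-globin gene Hbb-bt was saturated in TDAG51+/+ and at least 4.42-fold lower, and its next probe at least 4.67-fold. Hemgn was at -1.04 by its brightest and 0.80 by its next probe. On the other array, the TDAG51-/- intensity of the same Hba-a1 probe was 15328 and that of Hbb-bt 54001, far above the 2674 and 9686 of this one. With those readings Hba-a1 was at -0.53 and Hbb-bt at 0.37. Alas2, the red cell enzyme of heme synthesis, did not show this, at 2033 and 1966 in the 2 knockout channels and 6630 in TDAG51+/+. The globin genes share sequence, and the array's probes may not tell them apart.

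Housekeeping genes and large symbol families differed in how many members were past 2-fold. Of 13 measured housekeeping genes, Ppia (-1.001) alone reached 2-fold. The brightest probe of beta-actin (Actb) was saturated in TDAG51+/+, and no ratio is given for it, while its other probe gave 2379 against 4199 (-0.55). Of 74 cytosolic ribosomal protein genes, 71 were below 0, with a median of -0.53, but 4 were at least 2-fold lower (5.41%). Rps6 and Rpl17, the first and the fourth of these, were at -1.55 and -1.14 on this array and at 0.12 and -0.25 with the knockout channel of the other array. Of 78 oxidative phosphorylation genes, 2 were past 2-fold, both lower, with a median of -0.28. Of 77 potassium channel genes, 7 were higher and 7 lower (9.09% each). Of 35 sodium and calcium channel genes, 7 (20%) were at least 2-fold lower, led by Cacng3 (2437 against 11936, -1.94), and 1 was higher.

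Odorant and vomeronasal receptor genes, whose known site of use is the nose, were the largest family, with 1016 genes on the array. Of these, 519 had a ratio and 484 were near background in both channels. A total of 15 (2.89%) were past 2-fold upwards and 42 (8.09%) downwards, with a median of -0.21. By the scanner's ratio, which has no offset, 59 were higher and 127 lower, beside 1433 and 1594 of all genes. The largest was Vmn1r16, at 64.7 against 586 (-2.82). For 100 of the 519 the ratio is a bound.

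Genes were also counted by chromosome. By chromosome, between 2.35% and 5.59% of genes were higher by 2-fold or more and between 3.75% and 6.47% lower by as much, leaving out chromosome Y with its 2 genes. Chromosome 10, which carries Phlda1, had 5.46% and 4.45%. Within 5 Mb of the Phlda1 probe, 4 of 32 other genes were at least 2-fold higher (12.5%) and 1 lower. The 4 were Lin7a (log2 ratio 1.06), Csrp2 (2.19), Tph2 (2.60) and Ptprr (1.21), of which Tph2 is also a serotonin neuron gene, and the lower one was Glipr1l1, whose knockout signal was near background and whose bound was at least 1.97-fold lower. Within 10 Mb the counts were 5 and 5 of 74. The labels give the same strain for both samples.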

How the data were processed

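The authors hybridized whole-brain RNA to an Agilent Whole Mouse Genome array and deposited the output of the scanner software (Feature Extraction 9.5.3.1), which gives each spot a mean intensity and a median background intensity. The deposited output also holds a log10 ratio and a p-value of the software's error model, which covers spot noise and not dams, and the authors' own log2 ratio of both dyes, also deposited, was used as an alternative. No normalization beyond the scanner's is given in the sources used here.

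Here, 375 of 43379 spots that were not controls were dropped as outliers. Background was corrected by normexp (offset 50) and normalized by loess with limma 3.58.1 in R 4.3.3, and spots of a probe were averaged. Bounds used, after Aquantile scaling, the dimmest level marked as well above background or the gene's own dim reading, whichever was higher. Where the brighter channel was saturated, the bound was the ratio of the 2 channels. Ratios were tabulated and drawn with pandas 2.3.3, numpy 2.4.6 and matplotlib 3.10.9 in Python 3.11.15. Median intensities were 338 (Cy3) and 364 (Cy5) over backgrounds of 44 and 39, and precision is limited by the single array. The method was tested on simulated data.

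Probes were named through a GRCm38.p6 table by accession (22998), symbol (6563) or synonym (3048), and 8420 were not named. No coordinates of that table were used. No annotation of mm7 was used, so exons and untranslated regions are not given. The 53 gene lists and the members were chosen with earlier results of these data known. Named genes were TDAG51, the 12 largest ratios each way with both channels well above background and unsaturated, the 6 largest bounds each way, up to 4 leading members of each list, and oxytocin, vasopressin and other genes of the study's subject. Symbols that are only clone or accession names were not eligible. Some genes that this rule or the tissue check would name are not reported here. Other genes were added after their values were seen.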

Additional observations from a re-analysis of the deposited data

Results flagged for a closer look

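Genes of 2 kinds were at least 2-fold away from both controls in opposite directions, lower than in TDAG51+/+ and higher than in TDAG51-/-Tg. Nln had log2 ratios of -3.44 against TDAG51+/+ and 1.17 against TDAG51-/-Tg. The erythroid genes were Hba-a1, at -3.05 and 1.16, Hbb-bt, at -2.14 and 1.72, and Alas2, at -1.41 and 1.27. With the knockout channel of the other array, Hba-a1 was at -0.53 and Hbb-bt at 0.37 against TDAG51+/+, so that neither was 2-fold lower, and the other probe of Nln was at -0.21 against TDAG51+/+. With 1 array for each comparison, the differences between the comparisons were not tested.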

How the results depend on the processing

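The count of genes at least 2-fold higher (772) became 1201 with normexp offset 0, 1322 with plain background subtraction, 1433 with the scanner's log ratio, 1421 with that ratio at its p-value under 0.05, 1396 with the deposited log ratio, and 1694 when every probe was counted on its own. The count lower (861) became 1329, 1461, 1594, 1593, 1632 and 1527 under the same alternatives, and 1712 without normalization. Median centring gave 718 and 1183, the median of a gene's probes 638 and 738, and the knockout channel of the other array 843 and 1034. The cause of these differences was not tested. Of 139 named genes past 2-fold, 132 stayed past it in the same direction without normalization, 126 with the median of a gene's probes and 129 with the other knockout channel. That last setting reversed Hbb-bt to 0.37 and Rps6 to 0.12 on the log2 scale. The median of the PHLDA family, -1.71, became 0.0157 with no filter on dim probes, since a near-background member enters. The medians of telencephalic factors stayed between -1.49 and -0.99 and those of Purkinje cell genes between 1.26 and 1.62 over 11 alternatives. Those of midbrain and hindbrain factors stayed between 0.27 and 0.92. A single array gives no replicate to leave out. No paired analysis was possible because each genotype was measured once on this array. Signal near background limits the dim genes to bounds, and saturation the brightest.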
